A study of Homo sapiens with 13 samples.

Results

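The 8 libraries of hFOB 1.19 osteoblasts given 1 of 3 compounds without serum were compared with the 2 libraries of serum-free cells given none. Each compound weighed the same in the mean. The libraries were taken by their treatment labels alone: resveratrol (RES, n = 3), peonidin-3-O-glucoside (POG, n = 3), the compound labelled DEG (n = 2) and the negative control (NC, n = 2), which makes 10 of the 12 libraries with a column of counts. A 13th labelled library, a DEG replicate, was not analysed here, and the 2 positive controls, kept in 10% fetal bovine serum, stood outside the comparison. hFOB 1.19 is 1 line of human fetal osteoblasts immortalized with a temperature-sensitive SV40 large T antigen. All 10 cultures were without serum, and each compound was given at 1 µg/mL. According to the study's methods the NC cells received DMSO as vehicle, and the solvent of the compound wells was not given in the sources used here. The label DEG is not spelled out, and delphinidin-3-glucoside is the remaining compound named with the treatments. Since each common change is read against the same 2 NC libraries, a trait of those libraries and a response shared by all 3 compounds cannot be told apart.

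Resveratrol is a stilbene, a pair of phenol rings joined by an ethylene bridge, whereas peonidin- and delphinidin-3-glucoside are anthocyanins, flavonoid pigments with a sugar on the central ring that differ from each other in the hydroxyl and methoxy groups of the B ring. Osteoblasts secrete the type I and type III collagen and the small proteoglycans of bone matrix, and they steer osteoclasts through cytokines and through RANKL and its decoy receptor osteoprotegerin. Cells without serum also lose an outside supply of lipoprotein cholesterol, and sterol synthesis is set by SREBP2, which turns on the enzymes of the mevalonate pathway when membrane sterol is low.

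The libraries held 38464619 to 46033584 counted reads each. Of the 43836 genes in the table, 16941 were tested, and levels are given as CPM, the reads of a gene relative to the library's scaled total, which TMM, the trimmed mean of M values, adjusts. Replicates lay close together: the common biological coefficient of variation was 2.16%, and pairs of replicates differed by 2.09 to 2.76 times the Poisson variance, so no pair looked like 1 library counted again. The labels do not say whether replicates were separate cultures, and p-values therefore measure only the spread between these libraries, which may be technical. Of 10 osteoblast markers, IBSP and SP7 were too low to be tested, with 0 or 1 reads of IBSP and 0 to 8 reads of SP7 per library, while COL1A1, COL1A2, SPARC and RUNX2 were the most abundant. The summed level of the 10 markers was 5348 and 5411 CPM in NC and ranged from 4836 to 5109 CPM over the compound libraries.

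Across the 10 libraries, the first principal component of log2 CPM took 21.5% of the variance and set RES, at scores of 19.8 to 21.0, apart from POG and DEG, at -16.1 to -14.0. The NC libraries lay between them on this component, at 7.37 and 7.21. The second component took 12.6% and held both NC libraries, at 30.3 and 13.9, above all 8 compound libraries, at -10.5 to 1.93. What the 3 compounds had in common against NC was thus a smaller axis than what set RES apart from the other two. The NC libraries also lay far from each other on the second component.

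**Figure D1:**
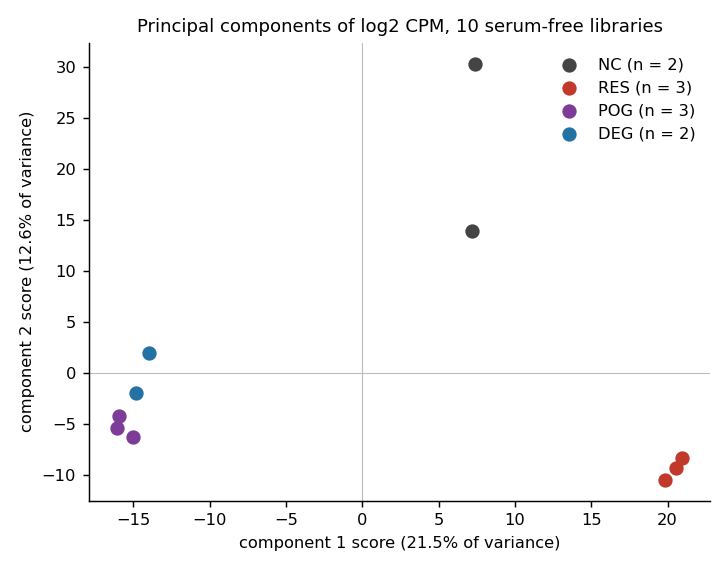
Scores of the 10 serum-free libraries on the first (horizontal) and second (vertical) principal component of log2 CPM; each point is a library, coloured by group. The 3 RES libraries lie far to the right of POG and DEG on the first component, and both NC libraries lie highest on the second, at 30.3 and 13.9.

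The mean of the 3 compounds differed from NC at an adjusted p under 0.05 (edgeR quasi-likelihood test, Benjamini-Hochberg) for 2307 genes, 13.6% of those tested. Of these, 882 were higher with the compounds (5.21%) and 1425 were lower (8.41%). Scaling by plain library totals in place of TMM gave 2638 genes, with 58.9% of them higher against 38.2% here, so the split between rises and falls depended on the scaling. Most changes were small: the median size was 0.14 on the log2 scale and 93.4% were under 0.5, while 153 genes changed by at least 0.5 (42 higher, 111 lower) and 37 by at least 1 (6 higher, 31 lower). In 1238 genes, 7.31% of those tested, the call came with all 8 compound libraries on the same side of both NC libraries. These comprised 446 higher (2.63%) and 792 lower (4.68%), and in the other 1069 called genes the ranges overlapped. Below, a gene with all compound libraries on 1 side of NC is said to be without overlap. Whether called or not, 1900 genes (11.2% of those tested) were without overlap. List members counted below as without overlap were also called, and list counts are to be set beside these shares over all genes. In bulk RNA, fewer cells making a transcript and less of it per cell cannot be told apart. Without NC replicate 1 the number called was 1392, without NC replicate 2 it was 1395, and with the serum libraries added to the fit it was 1327. Calls were most frequent among abundant genes, at 9.67% higher and 16.9% lower in the upper tercile of mean CPM against 0.868% and 1.82% in the lower one. Protein-coding genes were called more often (6.09% higher, 9.84% lower) than long non-coding RNAs (1.54% and 2.55%). In the upper tercile of GC content 4.21% of genes were higher and 11.2% lower, in the lower tercile 6.81% were higher and 5.38% lower, and the part of GC content in the calls was not tested.

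**Figure D2:**
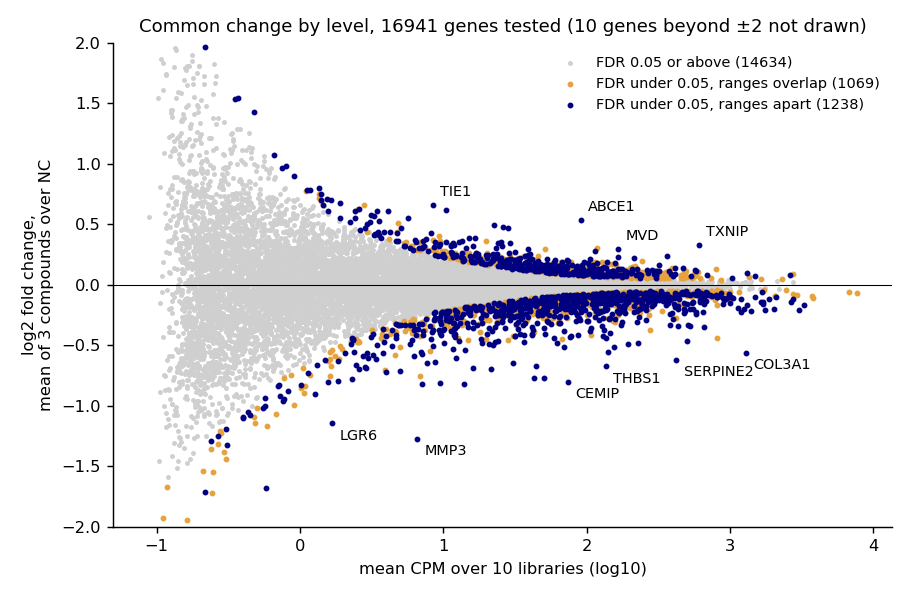
Log2 fold change of the equal-weight mean of the 3 compounds over NC (vertical) against mean CPM over the 10 libraries on a log10 axis (horizontal), for each gene tested except 10 beyond 2 log2 units either way. Blue points are the 1238 genes called with no overlap between the compound and NC libraries and orange points the 1069 called with overlap; of the labelled genes, COL3A1, SERPINE2 and THBS1 lie below the line, and ABCE1, TXNIP and MVD above it.

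Collagen transcripts were lower with the compounds. COL3A1, which encodes the chain of type III collagen (chr2:188974373-189012746 on hg38), stood at 1707 and 1766 CPM in the NC libraries, 1173, 1182 and 1201 in RES, 1177, 1198 and 1175 in POG and 1155 and 1168 in DEG. The 8 compound libraries lay within a narrow band well below both NC libraries. The mean log2 fold change was -0.56 ± 0.013 (SE), adjusted p = 2.52e-71, a fall of 32.2% and the lowest p of any gene. The change was -0.55 (RES), -0.55 (POG) and -0.58 (DEG). The chains of type I collagen, the main protein of bone, fell by less. COL1A1 stood at 2852 and 2873 CPM in the NC libraries, 2654, 2763 and 2759.5 in RES, 2535, 2579 and 2552 in POG and 2523 and 2480.2 in DEG, and its common log2 fold change was -0.14 ± 0.012 (SE), adjusted p = 3.31e-19. For COL1A2, levels were 1337 and 1373 CPM in the NC libraries, 1199, 1223 and 1226 in RES, 1121, 1130.3 and 1127 in POG and 1120.4 and 1138 in DEG, and the common change was -0.23 ± 0.014 (SE), adjusted p = 5.05e-31. Both type I chains fell in all 3 compounds without overlap, and by less with RES: COL1A1 changed by -0.071 (RES), -0.16 (POG) and -0.19 (DEG). Of 22 fibrillar and basement membrane collagen genes tested, 18 fell, 12 of them without overlap, and 0 rose (against 8.41% falling and 5.21% rising over all genes), with a median log2 fold change of -0.12 over the list and 0.00081 over all genes. Of these 18 genes 16 also differed among the compounds, against 62.9% of all genes called. COL12A1, a collagen associated with fibrils, changed by -0.48 ± 0.033 (SE), adjusted p = 3.44e-26. COL15A1, a low-level basement membrane collagen, fell by 0.70 on the log2 scale, and COL5A3, a minor fibrillar chain, fell by 0.26.

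Proteoglycans that bind collagen fibrils were lower as well. Lumican (LUM) was at 30.1 and 32.1 CPM in the NC libraries, 21.6, 18.9 and 19.2 in RES, 20.6, 19.7 and 17.0 in POG and 17.9 and 19.3 in DEG. Both NC libraries exceeded all 8 compound libraries, and the common log2 fold change was -0.70 ± 0.055 (SE), adjusted p = 7.77e-22. Decorin (DCN) changed by -0.47 ± 0.043 (SE), adjusted p = 7.3e-18, from a mean of 46.3 ± 2.01 CPM in NC (SD, n = 2) to 30.3 ± 2.27 in RES (n = 3), 38.8 ± 0.743 in POG (n = 3) and 31.6 ± 0.0307 in DEG (n = 2). Of 25 genes of osteoblast differentiation and bone matrix that were tested, 11 fell and 0 rose, 8 of the 11 without overlap, with a median of -0.11. All 11 were matrix or adhesion genes (COL1A1, COL1A2, COL5A1, COL5A2, FN1, LUM, DCN, POSTN, BGN, SPP1 and CDH11). Set beside them, 8.41% of all genes were lower and 4.68% lower without overlap. RUNX2, the transcription factor that starts the osteoblast program, gave 0.016 ± 0.039 (SE), adjusted p = 0.856. Osteopontin (SPP1) changed by -0.61 ± 0.19 (SE), adjusted p = 0.0187, with overlap. Its adjusted p was 0.299 without NC replicate 2 and 0.0524 without NC replicate 1. CDH11, an osteoblast cadherin, changed by -0.23 ± 0.037 (SE), adjusted p = 4.56e-07, and its compound libraries overlapped with NC.

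Among genes that averaged 100 CPM or more over the 10 libraries, thrombospondin 1 and protease nexin 1 fell furthest. THBS1, a matrix glycoprotein that activates TGF-beta (chr15:39581079-39599466), stood at 190.0 and 195 CPM in the NC libraries, 151, 144 and 149.6 in RES, 102, 99.8 and 98.9 in POG and 119 and 117 in DEG. The order NC, RES, DEG, POG held with no overlap between groups. The common change was -0.68 ± 0.023 (SE), adjusted p = 2.44e-54, made up of -0.38 (RES), -0.94 (POG) and -0.71 (DEG). SERPINE2, which encodes the protease inhibitor nexin 1 (chr2:223975045-224039318), was at 582 and 594 CPM in the NC libraries, 382, 379 and 377 in RES, 378, 379 and 378 in POG and 387 and 394 in DEG. In contrast to THBS1, the 3 compounds gave nearly the same change, -0.63 (RES), -0.63 (POG) and -0.59 (DEG), and the common change was -0.62 ± 0.016 (SE), adjusted p = 6.67e-67. TMEM158, a membrane protein induced by RAS signaling, was at 195 and 181 CPM in the NC libraries, 119, 132 and 137 in RES, 128, 133 and 126 in POG and 129 and 121 in DEG. Here too the compounds lay together below NC, with a common change of -0.56 ± 0.026 (SE), adjusted p = 3.44e-41. AKR1B1, the aldose reductase that makes sorbitol from glucose, changed by -0.52 ± 0.022 (SE), adjusted p = 1.77e-44.

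**Figure D3:**
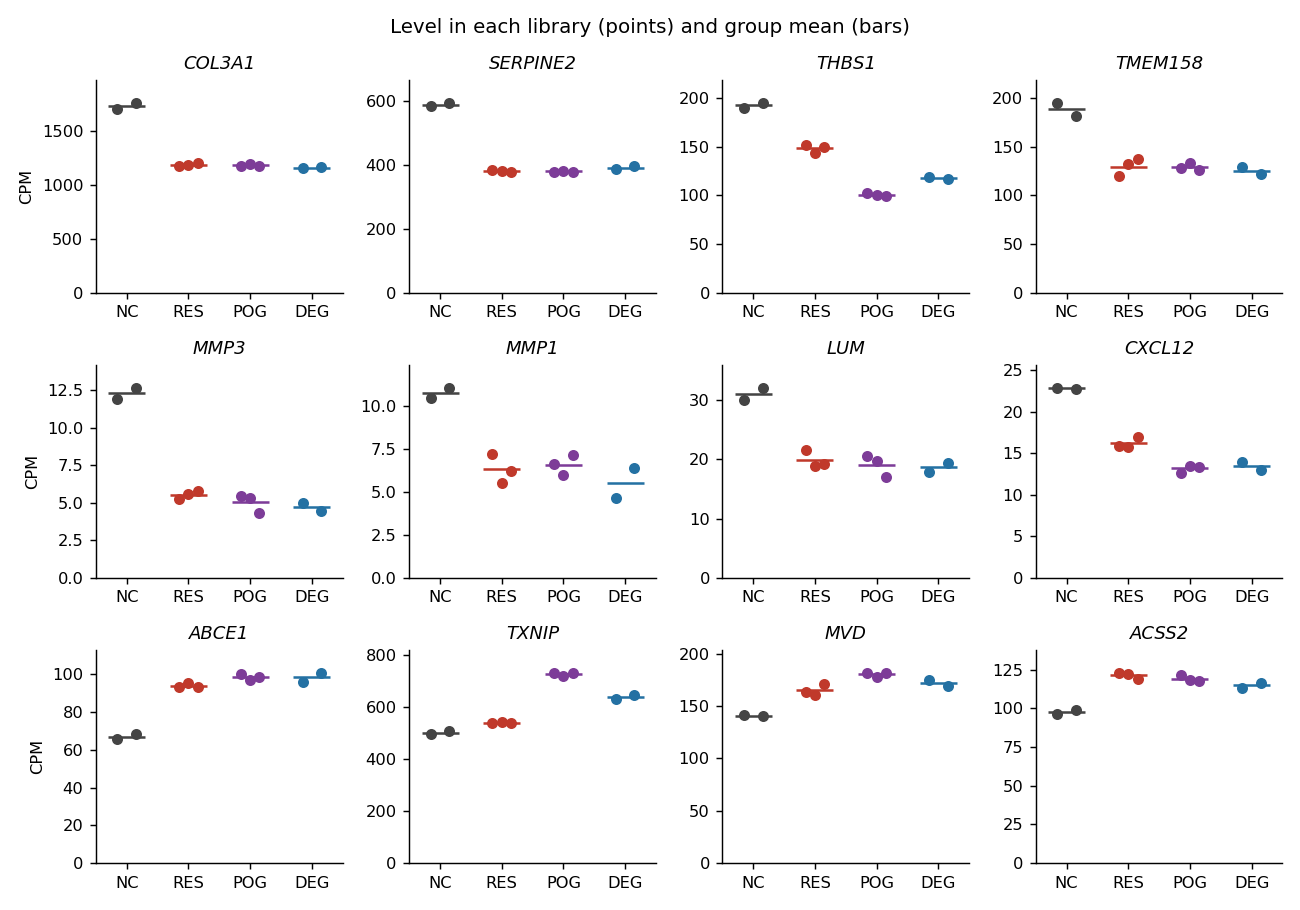
CPM of 12 genes in each library (points) with the group mean (bars), for NC (n = 2), RES (n = 3), POG (n = 3) and DEG (n = 2); each vertical axis starts at 0. COL3A1, SERPINE2, TMEM158, MMP3, MMP1, LUM, THBS1 and CXCL12 lie lower in all 8 compound libraries than in NC, and ABCE1, TXNIP, MVD and ACSS2 lie higher.

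Of 30 tested genes of the actin cytoskeleton and of SRF and YAP signaling, 14 were lower (10 without overlap) and 1 was higher. Among all genes 8.41% were lower, 4.68% were lower without overlap and 5.21% were higher. FLNA, which crosslinks actin filaments, changed by -0.21 ± 0.013 (SE), adjusted p = 7.34e-30. ACTG1, a cytoplasmic actin, gave -0.21 ± 0.013 (SE), adjusted p = 1.81e-29, and TPM1, a tropomyosin, gave -0.29 ± 0.019 (SE), adjusted p = 7.3e-28, with -0.046 (RES), -0.46 (POG) and -0.36 (DEG). CCN1 and CCN2, matricellular targets of YAP, and YAP1 itself were among the 14 that were lower. LATS2, a kinase that restrains YAP, was the 1 that was higher. With either NC library left out, LATS2 was no longer called higher. In the TGF-beta and BMP list, to be read against the same shares, 13 of 35 genes were lower, 9 without overlap. The 1 gene that was higher, SMAD5, was not called higher without NC replicate 1. Without NC replicate 2 only 8 were lower. LTBP2, a matrix protein that sits on microfibrils, changed by -0.22 ± 0.020 (SE), adjusted p = 1.77e-17. FST, which encodes the activin inhibitor follistatin, gave -0.23 ± 0.038 (SE), adjusted p = 5.68e-07. TGFB2, a ligand, gave -0.29 ± 0.056 (SE), adjusted p = 2.28e-05 but overlapped with NC, at -0.032 (RES), -0.58 (POG) and -0.26 (DEG). Noggin (NOG), a BMP inhibitor at about 2.46 CPM, gave -0.45 ± 0.16 (SE), adjusted p = 0.0409, and the call was lost without NC replicate 1 (adjusted p = 0.335) or NC replicate 2 (0.113).

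The matrix-degrading enzymes stromelysin 1 and interstitial collagenase were lower as well. MMP3 (chr11:102835801-102843609), an enzyme that cuts proteoglycans and activates other metalloproteinases, was at 11.9 and 12.7 CPM in the NC libraries, 5.24, 5.61 and 5.78 in RES, 5.48, 5.33 and 4.29 in POG and 4.99 and 4.48 in DEG. It was under 6 CPM in every compound library, which is a common change of -1.27 ± 0.087 (SE), adjusted p = 3.57e-26, or a fall of 58.6%. This was the largest fall among genes of at least 1 CPM without overlap. MMP1 (chr11:102789401-102798160), which cleaves fibrillar collagen, stood at 10.5 and 11.1 CPM in the NC libraries, 7.25, 5.54 and 6.26 in RES, 6.62, 5.97 and 7.16 in POG and 4.66 and 6.38 in DEG, a common change of -0.82 ± 0.090 (SE), adjusted p = 1.92e-13. The 3 compounds did not differ detectably for either gene (adjusted p = 0.263 for MMP3 and 0.179 for MMP1). Both genes overlap WTAPP1 on the opposite strand, and the strand setting of the counting was not given, so reads of the partner cannot be told apart. Of 31 metalloproteinases and inhibitors tested, 10 were lower and 3 higher (MMP11, MMP14 and MMP19), 6 and 2 of them without overlap, with a median of -0.047, and without NC replicate 2 the number called fell from 13 to 7. The shares over all genes were 8.41% lower and 5.21% higher, and 4.68% and 2.63% without overlap. ADAM12, a protease of mesenchymal cells, changed by -0.32 ± 0.034 (SE), adjusted p = 6.36e-14, with -0.33 (RES), -0.31 (POG) and -0.32 (DEG). TIMP3, a matrix-bound inhibitor of these enzymes, gave -0.45 ± 0.031 (SE), adjusted p = 1.05e-25, a mean of unequal values, 0.046 (RES), -0.79 (POG) and -0.60 (DEG).

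In the other direction, most genes of cholesterol synthesis were higher. Of 25 genes of cholesterol synthesis and uptake, all tested, 17 were higher and 1 lower, 9 of the 17 without overlap, against 5.21% higher and 2.63% higher without overlap over all genes. The list median was 0.13. Of the 18 members called, 13 also differed among the compounds, against 62.9% of all genes called. Among the 17 were genes from the first steps of the pathway (ACAT2, HMGCS1) through mevalonate phosphorylation and decarboxylation (MVK, MVD), isoprenoid formation (IDI1, FDPS) and squalene (FDFT1, SQLE) to the late sterol steps (CYP51A1, MSMO1, EBP, SC5D, DHCR7), with the sterol sensor partner INSIG1 and the transporter STARD4. SREBF2, which encodes SREBP2 itself, was the 1 member that was lower. Its adjusted p was 0.0374, its changes were -0.17 (RES), 6.94e-05 (POG) and 0.024 (DEG), and it was not called lower without NC replicate 1, without NC replicate 2 or with plain library totals. The list then had 15, 14 and 19 members higher and 0 lower.

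MVD (chr16:88651935-88663161), the decarboxylase that makes isopentenyl diphosphate, stood at 141 and 141 CPM in the NC libraries, 164, 160.2 and 171 in RES, 182, 178 and 182 in POG and 175 and 169 in DEG. All 8 compound libraries exceeded both NC libraries, and the common change was 0.29 ± 0.023 (SE), adjusted p = 3.34e-21, a rise of 22.4%. HMGCS1 (chr5:43287470-43313512), which makes HMG-CoA, was at 317 and 322 CPM in the NC libraries, 350.1, 339 and 348 in RES, 415, 399.9 and 413 in POG and 376 and 377 in DEG. Its common change was 0.23 ± 0.018 (SE), adjusted p = 2.59e-22, and POG, at 0.36, exceeded RES, at 0.11, by 0.24 (95% interval 0.21 to 0.28). ACAT2, the thiolase of the first step, changed by 0.23 ± 0.023 (SE), adjusted p = 3.34e-15, and the 3 compounds did not differ detectably (adjusted p = 0.102), at 0.26 (RES), 0.22 (POG) and 0.20 (DEG). IDI1, the isomerase that follows MVD, changed by 0.22 ± 0.021 (SE), adjusted p = 8.67e-17, with 0.066 (RES), 0.31 (POG) and 0.28 (DEG). ACAT2 shares genomic positions with TCP1 and SOD2 on the opposite strand.

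Since most genes of this list were higher, their promoters were read in the RefSeq windows of GRCh38.p14. These run from 250 bases before to 50 bases after the start. The core of the sterol regulatory element was searched as CACCCCAC and the box bound by NF-Y, a partner of SREBP2, as CCAAT, each on both strands; neither motif contains the other. Of the 17 genes that were higher, 12 had a window (17 windows), and ACAT2, FDFT1 and SQLE were among those without one. A CCAAT box was present in 13 of these 17 windows (76.5%), in 5 of 6 windows of the members that were not higher (83.3%) and in 34.6% of all 35116 windows. The sterol core was present in 0 of the 17, in 1 of the 6 and in 2.79% of all windows. The 250 bases before the RefSeq start are shown for the pair of list members above 100 CPM with the largest rises that had a window (for HMGCS1 the farther upstream of its 2) and for SREBF2, the gene of the pathway's own regulator, each 5′ to 3′ along the gene's strand with matches in capitals. MVD lies on the minus strand (chr16:88663092-88663341) and holds 3 CCAAT matches, HMGCS1 lies on the minus strand (chr5:43313413-43313662) and holds 2, and SREBF2 lies on the plus strand (chr22:41832855-41833104) and holds 1 together with the 1 sterol core.
MVD: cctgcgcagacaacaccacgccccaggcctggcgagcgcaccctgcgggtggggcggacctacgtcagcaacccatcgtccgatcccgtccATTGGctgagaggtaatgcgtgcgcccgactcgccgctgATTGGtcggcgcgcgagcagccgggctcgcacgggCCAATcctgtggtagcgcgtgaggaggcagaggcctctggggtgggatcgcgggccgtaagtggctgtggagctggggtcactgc
HMGCS1: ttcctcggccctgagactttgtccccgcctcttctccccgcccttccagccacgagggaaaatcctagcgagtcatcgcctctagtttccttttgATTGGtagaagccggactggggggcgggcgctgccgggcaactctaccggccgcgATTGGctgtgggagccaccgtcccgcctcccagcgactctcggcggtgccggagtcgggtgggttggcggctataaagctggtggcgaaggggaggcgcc
SREBF2: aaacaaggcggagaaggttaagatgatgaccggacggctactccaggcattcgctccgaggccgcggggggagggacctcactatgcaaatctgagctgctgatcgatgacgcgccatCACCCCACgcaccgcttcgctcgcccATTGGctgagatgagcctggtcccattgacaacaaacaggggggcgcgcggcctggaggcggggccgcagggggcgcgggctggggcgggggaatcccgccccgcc
A match describes these letters and not a bound site.

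The fatty acid genes did not move as a block. Of 18 tested, 4 were higher (ACSS2, ELOVL5, ELOVL6 and FASN) and 5 lower (FADS1, FADS2, ACACA, ME1 and SREBF1). Over all genes the shares were 5.21% higher and 8.41% lower. With plain library totals 7 of the fatty acid genes were higher and 4 lower. ACSS2, which makes cytosolic acetyl-CoA from acetate, stood at 96.6 and 98.7 CPM in the NC libraries, 123, 122 and 119 in RES, 122, 119 and 117 in POG and 113 and 117 in DEG. It was higher in each compound library than in NC, with 0.28 ± 0.026 (SE), adjusted p = 6.26e-17 and compounds at 0.31 (RES), 0.29 (POG) and 0.24 (DEG). SREBF1, which encodes the regulator of fatty acid synthesis, gave -0.11 ± 0.022 (SE), adjusted p = 0.000112, with -0.20 (RES), -0.011 (POG) and -0.11 (DEG). ELOVL6, an elongase, gave 0.16 ± 0.039 (SE), adjusted p = 0.00144, and ME1, a source of NADPH, gave -0.16 ± 0.046 (SE), adjusted p = 0.00656; without NC replicate 2 the adjusted p was 0.234 for ELOVL6 and 0.266 for ME1.

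Cytokine and chemokine transcripts were mostly lower, and in this group the compounds were unequal. Of 37 cytokines, chemokines and NF-kB feedback genes tested, 20 were lower (11 without overlap) and 5 higher (REL, NFKB2, BIRC3, ICAM1 and RELB), with a median of -0.16. The all-gene shares were 8.41% lower, 4.68% lower without overlap and 5.21% higher. CXCL12, the chemokine that holds blood-forming cells in the marrow, was at 22.9 and 22.8 CPM in the NC libraries, 15.9, 15.7 and 17.0 in RES, 12.6, 13.5 and 13.3 in POG and 13.9 and 12.9 in DEG. It lay lower in every compound library than in NC, with a common change of -0.68 ± 0.060 (SE), adjusted p = 8.81e-19 and -0.49 (RES), -0.79 (POG) and -0.77 (DEG). CCL2, which attracts monocytes, was at 289 and 289 CPM in the NC libraries, 241, 243 and 231 in RES, 201, 204 and 204 in POG and 179 and 187 in DEG. Its common change was -0.48 ± 0.020 (SE), adjusted p = 6.25e-46, and all 3 compounds were lower, at -0.28 (RES), -0.51 (POG) and -0.66 (DEG). CXCL1, a neutrophil chemokine, was at 618 and 623 CPM in the NC libraries, 599, 581 and 589 in RES, 396, 389 and 399 in POG and 388 and 394 in DEG. The ranges did not meet, but RES stood close to NC: the common change of -0.46 ± 0.016 (SE), adjusted p = 4.47e-54 came from -0.073 (RES), -0.65 (POG) and -0.67 (DEG). CXCL3 behaved alike, at -0.64 ± 0.045 (SE), adjusted p = 1.09e-25, and CXCL1, CXCL2 and CXCL3 are closely similar genes between which reads can be split. BIRC3, an NF-kB target that blocks caspases, rose by 0.21 ± 0.042 (SE), adjusted p = 3.69e-05.

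IL6, a cytokine that drives osteoclast formation, joined opposite directions in its mean. Its levels were 978 and 1003 CPM in the NC libraries, 1029, 1020.5 and 1026 in RES, 601, 588 and 610.4 in POG and 625 and 632 in DEG. POG and DEG lay far below NC while RES lay slightly above it, at 0.049 (RES), -0.72 (POG) and -0.66 (DEG). The common change of -0.44 ± 0.014 (SE), adjusted p = 7.82e-56 was among the 5 lowest p-values for a fall, yet the 3 compounds differed at an adjusted p of 6.09e-84. Of 19 signals from osteoblasts to osteoclasts that were tested, 11 were lower, 7 without overlap, and 0 higher, with a median of -0.20. Among all genes the shares were 8.41% lower and 4.68% lower without overlap. Osteoprotegerin (TNFRSF11B), the decoy receptor that blocks RANKL, was at 38.6 and 40.1 CPM in the NC libraries, 35.6, 35.0 and 33.9 in RES, 25.9, 25.6 and 26.1 in POG and 27.2 and 29.1 in DEG. It was lower in all 8 compound libraries, with a common change of -0.42 ± 0.045 (SE), adjusted p = 3.18e-14. RANKL itself (TNFSF11) had a mean of 0.287 CPM and gave -1.02 ± 0.47 (SE), adjusted p = 0.154, so no common change was detectable at this depth. Its reads numbered 24 and 7 in the NC libraries, 15, 14 and 26 in RES, 3, 2 and 2 in POG and 15 and 11 in DEG. The POG libraries lay below every other library, the log2 changes were 0.053 (RES), -2.87 (POG) and -0.25 (DEG), and the 3 compounds differed (adjusted p = 0.000124). The common value was 0.14 without NC replicate 1 and -1.66 without NC replicate 2 (adjusted p = 0.964 and 0.0592), and the mean of POG and DEG alone gave -1.56 (0.0266).

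**Figure D4:**
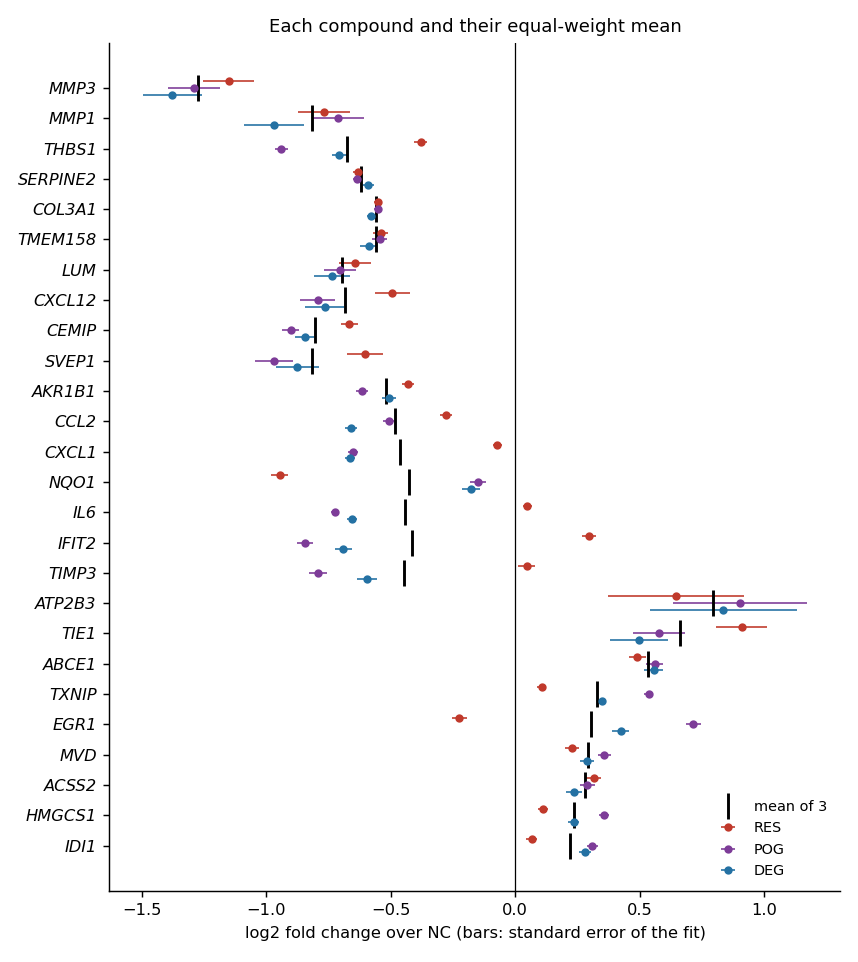
Log2 fold change over NC of 26 genes for RES, POG and DEG (points, with the standard error of the fit as bars) and for their equal-weight mean (black ticks). COL3A1, SERPINE2, TMEM158, MMP3 and ABCE1 show 3 points close together, whereas IL6, IFIT2, TIMP3 and EGR1 show RES on the other side of 0 from POG and DEG; the 3 values of a gene share the NC libraries.

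Genes that NRF2 is known to induce, which make glutathione, NADPH and detoxifying enzymes, were lower or not called. Of 29 tested, 14 were lower (10 without overlap) and 0 higher, with a median of -0.088. The shares among all genes were 8.41% lower and 4.68% lower without overlap. NQO1, a quinone reductase, was at 94.6 and 99.3 CPM in the NC libraries, 50.2, 50.3 and 50.4 in RES, 86.8, 87.4 and 87.9 in POG and 86.0 and 85.4 in DEG. The RES libraries lay lowest and POG and DEG lay between RES and NC, so that the common change of -0.43 ± 0.029 (SE), adjusted p = 2.25e-26 was mainly that of RES, at -0.95 (RES), -0.15 (POG) and -0.18 (DEG). ABCC3, an exporter of conjugates, gave -0.41 ± 0.039 (SE), adjusted p = 2.29e-16, with -0.47 (RES), -0.38 (POG) and -0.37 (DEG). Epoxide hydrolase (EPHX1) gave -0.26 ± 0.046 (SE), adjusted p = 4.46e-06. SLC7A11, the cystine importer, had an adjusted p of 0.00011 with unequal values, -0.56 (RES), -0.16 (POG) and 0.082 (DEG). Of 9 genes of the aryl hydrocarbon receptor pathway that were tested, NQO1 and CYP1B1 were lower and 0 were higher, or 2 and 1 with plain library totals. With TMM 22.2% of this list were called, against 13.6% over all genes. CYP1B1, which hydroxylates estrogens and polycyclic compounds, was 52.2 ± 1.32 CPM in NC (SD, n = 2) and gave -0.24 ± 0.038 (SE), adjusted p = 2e-07.

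TXNIP, which restrains glucose uptake and binds thioredoxin (chr1:145992435-145996579), rose furthest among genes that averaged 100 CPM or more over the 10 libraries. It was at 497 and 506 CPM in the NC libraries, 539, 544 and 539 in RES, 733, 721 and 730.4 in POG and 630.3 and 646 in DEG. The groups did not overlap and were ordered NC, RES, DEG, POG, with a common change of 0.33 ± 0.016 (SE), adjusted p = 8.7e-39 and 0.11 (RES), 0.54 (POG) and 0.35 (DEG). ARRDC4, a related arrestin, gave 0.39 ± 0.070 (SE), adjusted p = 6.05e-06, but this fell to 0.22 (adjusted p = 0.118) without NC replicate 1. Of 27 FOXO and starvation-induced genes tested, 4 were higher (TXNIP, ARRDC4, PIK3IP1 and TSC22D3) and 6 lower, with a median of -0.036. That is 37% called, against 13.6% over all genes. PIK3IP1, which dampens PI3K, gave 0.36 ± 0.060 (SE), adjusted p = 1.13e-06, and TRIB2, a pseudokinase, gave -0.42 ± 0.047 (SE), adjusted p = 1.65e-13, both with overlap. Among 38 glycolysis and hypoxia targets tested, 14 were lower (12 without overlap) and 5 higher. The shares of all genes were 8.41% lower, 4.68% lower without overlap and 5.21% higher. VEGFA, the vascular growth factor, changed by -0.33 ± 0.021 (SE), adjusted p = 1.16e-28, from 210.4 and 207 CPM in NC to 179, 182 and 180.4 in RES, 156, 159 and 155 in POG and 162 and 159 in DEG. NDRG1 gave -0.28 ± 0.022 (SE), adjusted p = 8.65e-21, and hexokinase 2 (HK2) gave -0.28 ± 0.043 (SE), adjusted p = 1.22e-07. HIF1A, the oxygen-regulated subunit, gave -0.11 ± 0.017 (SE), adjusted p = 2.96e-08, and HIF1AN, which hydroxylates it, gave -0.0042 ± 0.029 (SE), adjusted p = 0.956.

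Of 35 immediate early and MAPK feedback genes, 14 were lower (8 without overlap) and 3 higher (EGR1, KLF10 and KLF2), with a median of -0.062. For all genes the shares were 8.41% lower, 4.68% lower without overlap and 5.21% higher. IER3, an early gene of growth factor and NF-kB signaling, was at 609 and 596 CPM in the NC libraries, 526, 537 and 531 in RES, 454, 458 and 459.6 in POG and 450.3 and 446 in DEG. It was lower in each compound library, with -0.34 ± 0.016 (SE), adjusted p = 2.72e-40. NR4A2, an orphan nuclear receptor, gave -0.37 ± 0.039 (SE), adjusted p = 3.32e-14 with nearly equal values, -0.39 (RES), -0.37 (POG) and -0.35 (DEG). DUSP4, a phosphatase of ERK, gave -0.34 ± 0.042 (SE), adjusted p = 9.41e-11. EGR1, a zinc finger factor, was higher on average, at 0.30 ± 0.027 (SE), adjusted p = 2.57e-18, although RES lay below NC, at -0.22 (RES), 0.71 (POG) and 0.42 (DEG).

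ABCE1, the ATPase that splits ribosomes after translation ends (chr4:145098288-145129524), had one of the 5 lowest p-values for a rise. It was at 65.5 and 68.3 CPM in the NC libraries, 93.4, 95.6 and 93.3 in RES, 100.2, 96.9 and 98.9 in POG and 95.9 and 101 in DEG. The 8 compound libraries lay between 93.3 and 101 CPM, all above NC. The common change was 0.54 ± 0.030 (SE), adjusted p = 3.49e-33, a rise of 45.0%, with 0.49 (RES), 0.56 (POG) and 0.56 (DEG). The joint test of the 3 compounds gave an adjusted p of 0.0826, while POG against RES alone passed at 0.0482. ABCE1 shares positions with ANAPC10 and OTUD4 on the opposite strand. Fewer of the other translation genes were called: of 79 cytosolic ribosomal protein genes, 6 were higher and 1 lower, a share of 8.86% called against 13.6% over all genes, and with plain library totals 18 were higher. Without NC replicate 1 the split turned to 3 higher and 7 lower, and without NC replicate 2 it was 9 and 0. In the amino acid response list 9 of 30 genes were lower and 2 higher (MTHFD2 and ASNS), 36.7% called in all, with a median of 0.012. DDIT4, an inhibitor of mTORC1, gave -0.24 ± 0.022 (SE), adjusted p = 5.83e-17. Of 25 endoplasmic reticulum folding genes, 4 were higher and 1 lower, or 3 and 0 without NC replicate 2 and 7 and 1 with plain library totals. HSP90B1, the chaperone GRP94, gave 0.10 ± 0.014 (SE), adjusted p = 6.95e-09, and PDIA3, a disulfide isomerase, gave 0.079 ± 0.015 (SE), adjusted p = 3.03e-05. Among 25 cytosolic heat shock genes 4 were lower and 0 higher, or 3 and 2 with plain library totals. With TMM the share called was 16% for heat shock genes and 20% for folding genes, near the 13.6% over all genes. HSPH1, a nucleotide exchange factor of HSP70, gave -0.090 ± 0.022 (SE), adjusted p = 0.00112, and HSPA1A, whose reads can be split with its near-identical copy HSPA1B, gave -0.13 ± 0.029 (SE), adjusted p = 0.000265 with -0.40 (RES), 0.0056 (POG) and -0.0074 (DEG).

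Some proliferation genes were higher. Of 40 genes of DNA replication and the G1/S step, 10 were higher and 2 lower, and of 40 mitotic genes 13 were higher and 2 lower. The medians were 0.028 and 0.047, and 28 and 25 members were not called. For comparison, 5.21% of all genes were higher, 2.63% higher without overlap and 8.41% lower. Only 6 of the 10 and 2 of the 13 were free of overlap, and without NC replicate 1 only 4 replication genes and 7 mitotic genes were higher. RFC4, a subunit of the clamp loader, gave 0.17 ± 0.031 (SE), adjusted p = 1.16e-05, with 0.12 (RES), 0.19 (POG) and 0.18 (DEG). CDT1, a licensing factor, gave 0.14 ± 0.021 (SE), adjusted p = 1.07e-07, but RES was at 0.0068. TTK, a spindle checkpoint kinase, gave 0.19 ± 0.031 (SE), adjusted p = 6.05e-07, and CCNB2, a mitotic cyclin, gave 0.14 ± 0.029 (SE), adjusted p = 0.000122. FOXM1, a transcription factor of mitotic genes, went the other way, at -0.12 ± 0.019 (SE), adjusted p = 7.32e-08. CCND1, cyclin D1, gave -0.086 ± 0.023 (SE), adjusted p = 0.0038, a mean of opposite signs (0.14 (RES), -0.23 (POG) and -0.16 (DEG)), and its adjusted p was 0.057 without NC replicate 1 and 0.0801 without NC replicate 2. Among 30 p53 targets 8 were higher (4 without overlap) and 1, TP63, lower, and without NC replicate 1 only 3 were higher. GADD45A, which is induced by DNA damage, gave 0.35 ± 0.050 (SE), adjusted p = 1.25e-08, at 0.38 (RES), 0.41 (POG) and 0.24 (DEG). PLK2 gave 0.24 ± 0.065 (SE), adjusted p = 0.00501, and without NC replicate 1 its adjusted p was 0.225.

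Most genes that decide on apoptosis were not called, and those that were went in both directions. Of 34 regulators and caspases tested, 4 were higher (TNFRSF10A, BIRC3 and BIRC2 among them) and 3 lower (CFLAR, FADD and BMF), a share of 20.6% called (13.6% over all genes) with a median of 0.010. The number called fell from 7 to 3 without NC replicate 1 and to 4 without NC replicate 2. The gene of BCL-XL (BCL2L1) gave -0.071 ± 0.030 (SE), adjusted p = 0.104, with 0.13 (RES), -0.24 (POG) and -0.10 (DEG), and that of BIM (BCL2L11) gave -0.11 ± 0.046 (SE), adjusted p = 0.106. BCL2 gave 0.068 ± 0.11 (SE), adjusted p = 0.779, BAX gave -0.053 ± 0.026 (SE), adjusted p = 0.191 and BAD gave 0.036 ± 0.043 (SE), adjusted p = 0.68. CASP6, CASP8 and CASP9 had adjusted p-values of 0.535, 0.444 and 0.994. A list of 31 genes discussed by the study, which was chosen on these libraries and is no independent evidence of a direction, had 30 tested, of which 10 were lower and 1 higher. C2CD4A, a gene at about 1 CPM in NC, changed by -1.68 ± 0.31 (SE), adjusted p = 1.15e-05, with 1.19 and 1.34 CPM in the NC libraries, 0.271, 0.563 and 0.452 in RES, 0.649, 0.343 and 0.282 in POG and 0.234 and 0.435 in DEG. TP63 gave -1.72 ± 0.46 (SE), adjusted p = 0.00424 from 0.701 and 0.329 CPM in NC and a mean of 0.167 with the compounds, and without NC replicate 1 it gave -1.08 (adjusted p = 0.458). C2CD4B, at a mean of 0.277 CPM, gave -1.21 ± 0.44 (SE), adjusted p = 0.049, and without NC replicate 2 it gave -0.61 (adjusted p = 0.701).

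Interferon-stimulated genes were called often (57.5% of those tested against 13.6% over all genes), but with overlap throughout. Of 40 tested, 21 were lower and 2 higher (IFI6 and BST2), yet 0 of the 23 were free of overlap and all 23 also differed among the compounds. IFIT2, which binds viral RNA, was at 127 and 123 CPM in the NC libraries, 149, 155 and 156 in RES, 72.6, 66.2 and 69.7 in POG and 76.5 and 78.2 in DEG. RES stood above NC and POG and DEG stood below it, and the mean of -0.41 ± 0.026 (SE), adjusted p = 2.66e-28 lay between them, at 0.30 (RES), -0.84 (POG) and -0.69 (DEG). RSAD2, the antiviral enzyme viperin, gave -0.46 ± 0.048 (SE), adjusted p = 2.15e-14 in the same manner, at 0.34 (RES), -0.97 (POG) and -0.74 (DEG), and so did IFIT1, at 0.27 (RES), -0.48 (POG) and -0.56 (DEG). Of the 13 mRNAs encoded by mitochondrial DNA, 10 were lower, 2 without overlap, with a median of -0.074. In all genes the shares were 8.41% lower and 4.68% lower without overlap. Of these 10 mRNAs 9 also differed among the compounds, against 62.9% of all genes called. Without NC replicate 1 fewer of the mRNAs were called lower, and the calls were no longer all falls. MT-CO2, a subunit of cytochrome oxidase, gave -0.11 ± 0.012 (SE), adjusted p = 4.45e-14, at 0.00079 (RES), -0.13 (POG) and -0.20 (DEG), and MT-CYB gave -0.10 ± 0.013 (SE), adjusted p = 8.68e-10, at 0.071 (RES), -0.10 (POG) and -0.26 (DEG). The nuclear-encoded subunits did not follow: of 75, 2 were higher and 3 lower, a share of 6.67%, and with plain library totals 8 were higher and 0 lower. Without NC replicate 1 these numbers were 1 and 1, and without NC replicate 2 they were 3 and 0. The mitochondrial share of all reads was 3.34% ± 0.11 in NC (SD, n = 2) and 3.25% ± 0.13 over the 8 compound libraries (exact two-sided permutation test, p = 0.4, adjusted p = 0.555 over 5 shares of reads). For the 10 most abundant genes, the share was 4.11% ± 0.05 in NC against 3.95% ± 0.063 (exact permutation p = 0.0444, the smallest that 45 arrangements allow, adjusted p = 0.222). Pseudogenes (0.479% against 0.486%, p = 0.267), long non-coding RNAs (0.690% against 0.692%, p = 0.756) and ribosomal protein genes (2.94% against 2.98%, p = 0.444) gave no detectable difference in the same exact test.

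Of 36 lysosome and autophagy genes 11 were lower (6 without overlap) and 2 higher (ATG16L1 and NPC1), with a median of -0.032. Of all genes 8.41% were lower, 4.68% lower without overlap and 5.21% higher. Without NC replicate 2 the number called fell from 13 to 5, with 4 lower. CTSD, the protease cathepsin D, gave -0.14 ± 0.025 (SE), adjusted p = 3.14e-06, at -0.14 (RES), -0.16 (POG) and -0.14 (DEG). TFEB, the factor that switches lysosomal genes on, gave -0.24 ± 0.058 (SE), adjusted p = 0.000836, and MCOLN1, a lysosomal calcium channel, gave -0.21 ± 0.051 (SE), adjusted p = 0.0014. Without NC replicate 2 their adjusted p-values were 0.145 and 0.0893.

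Across all genes, the largest falls without overlap among genes of at least 1 CPM were in MMP3 and then LGR6, TENM2, CH25H, SVEP1, MMP1, CEMIP, MILR1, ABCA4 and IGFBP5. LGR6, a receptor for R-spondins, was at 2.41 and 3.34 CPM in the NC libraries, 2.08, 1.87 and 1.87 in RES, 1.16, 0.755 and 1.11 in POG and 0.910 and 1.33 in DEG. It was lower in all 8 libraries, with -1.15 ± 0.18 (SE), adjusted p = 2.09e-07 and -0.57 (RES), -1.51 (POG) and -1.36 (DEG). CEMIP, which breaks down hyaluronan (chr15:80779343-80951776), was by far the most abundant of these, at 112 and 113 CPM in the NC libraries, 67.8, 72.1 and 72.9 in RES, 62.0, 58.8 and 60.1 in POG and 61.9 and 63.4 in DEG. Its common change was -0.81 ± 0.029 (SE), adjusted p = 2.08e-51, a fall of 42.8%. SVEP1, a large adhesion protein of the matrix, gave -0.82 ± 0.064 (SE), adjusted p = 7.89e-22, and MILR1, an inhibitory receptor, gave -0.81 ± 0.079 (SE), adjusted p = 2.86e-16. IGFBP5, which binds insulin-like growth factors and is stored in bone matrix, gave -0.79 ± 0.18 (SE), adjusted p = 0.000301 at a mean of 1.86 CPM. TENM2, an adhesion receptor, gave -0.91 ± 0.21 (SE), adjusted p = 0.000791, which moved to -0.50 (adjusted p = 0.371) without NC replicate 2. CH25H, the cholesterol 25-hydroxylase, gave -0.83 ± 0.25 (SE), adjusted p = 0.0125 at 1.01 CPM, with adjusted p-values of 0.186 and 0.0555 without NC replicates 1 and 2. ABCA4, a retinoid flippase, gave -0.80 ± 0.19 (SE), adjusted p = 0.000768, and 0.0709 was its adjusted p without NC replicate 1.

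The largest rises without overlap were in genes near the floor of 1 CPM: ATP2B3, ENSG00000246203, DNAH6, NKPD1, CDHR1, ZKSCAN8P1, ARC, MAPK8IP2, TIE1 and SPATA6L. TIE1, a receptor of endothelial cells, was the most abundant of them, at 5.37 and 5.90 CPM in the NC libraries, 11.2, 10.3 and 10.3 in RES, 7.99, 8.37 and 8.87 in POG and 7.78 and 8.15 in DEG. All compound libraries were above NC, and the common change was 0.66 ± 0.093 (SE), adjusted p = 4.68e-09, with 0.91 (RES), 0.58 (POG) and 0.50 (DEG). ATP2B3, a calcium pump of the plasma membrane, stood at 0.805 and 0.912 CPM in the NC libraries, 1.17, 1.28 and 1.58 in RES, 1.97, 1.05 and 1.80 in POG and 1.59 and 1.49 in DEG, a common change of 0.80 ± 0.24 (SE), adjusted p = 0.0146. It was no longer called without NC replicate 1 (adjusted p = 0.188) or NC replicate 2 (0.0838). ENSG00000246203 shares positions with YY1AP1 on its own strand and MSTO1 on the other. Leaving out at least 1 of the NC libraries ended the call of each of the 10 except TIE1.

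Markers of other cell types gave no group that moved as a whole. The 10 endothelial markers summed to 59.6 and 61.5 CPM in NC and 52.7 to 84.6 CPM with the compounds, with TIE1 higher and PECAM1 and ROBO4 lower out of 7 tested. PECAM1 and ROBO4 were not called without NC replicate 1 (adjusted p = 0.102 and 0.33), nor PECAM1 without NC replicate 2 (0.167). Myeloid and osteoclast markers summed to 16.1 and 16.3 CPM against 15.4 to 19.4 CPM, with 0 of 7 called and TYROBP at 0 reads in every library. Chondrocyte markers summed to 26.2 and 30.1 CPM against 30.8 to 38.6 CPM, with MATN3, a cartilage matrix protein, the 1 of 8 that was called, at 0.35 ± 0.054 (SE), adjusted p = 6.6e-08. Adipocyte markers summed to 11.2 and 12.3 CPM against 10.5 to 12.9 CPM (0 of 5 called, LEP and LPL at 0), and muscle markers to 4.84 and 6.05 CPM against 4.36 to 6.35 CPM (0 of 6 called). Epithelial markers, nearly all KRT8 and KRT18, summed to 406.8 and 415 CPM against 347 to 467 CPM. KRT18 gave -0.076 ± 0.022 (SE), adjusted p = 0.00812 and KRT8 gave -0.062 ± 0.020 (SE), adjusted p = 0.0267, with RES above NC and POG and DEG below it, and neither was called with plain library totals (adjusted p = 0.0749 and 0.186) or without NC replicate 2 (0.328 and 0.297), nor KRT8 without NC replicate 1 (0.0826). KRT8 and KRT18 overlap each other on opposite strands.

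The common effect was read against the differences among the compounds, which use no NC library in their contrast. RES, POG and DEG differed from one another in 5924 genes (35% of those tested), and of the 2307 genes with a common change 1450 (62.9%) were among them. Of the 1238 without overlap, 538 (43.5%) differed among the compounds and 700 did not pass that test, 301 of them higher than NC and 399 lower. The 700 were set apart by not passing that test, so small differences among the compounds follow from the choice. For the genes at their head the intervals were narrow, though 1 given for SERPINE2 and 1 for ABCE1 left out 0. COL3A1 differed by -0.027 (-0.059 to 0.0043) between DEG and POG and by -0.0022 (-0.030 to 0.026) between POG and RES, as log2 differences with 95% intervals. For SERPINE2 these were 0.044 (0.0058 to 0.083) and -0.0033 (-0.038 to 0.031), for TMEM158 -0.044 (-0.11 to 0.017) and -0.0048 (-0.059 to 0.049), and for ABCE1 -0.004 (-0.067 to 0.059) and 0.069 (0.013 to 0.12). At the other extreme, THBS1 differed by 0.23 (0.18 to 0.29) between DEG and POG and by -0.56 (-0.61 to -0.51) between POG and RES, and TXNIP by -0.19 (-0.23 to -0.15) and 0.43 (0.40 to 0.46), although both genes changed in 1 direction in all 8 libraries. The doses matched by weight and not by moles, since peonidin-3-O-glucoside, and delphinidin-3-glucoside if that is DEG, are heavier molecules than resveratrol.

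**Figure D5:**
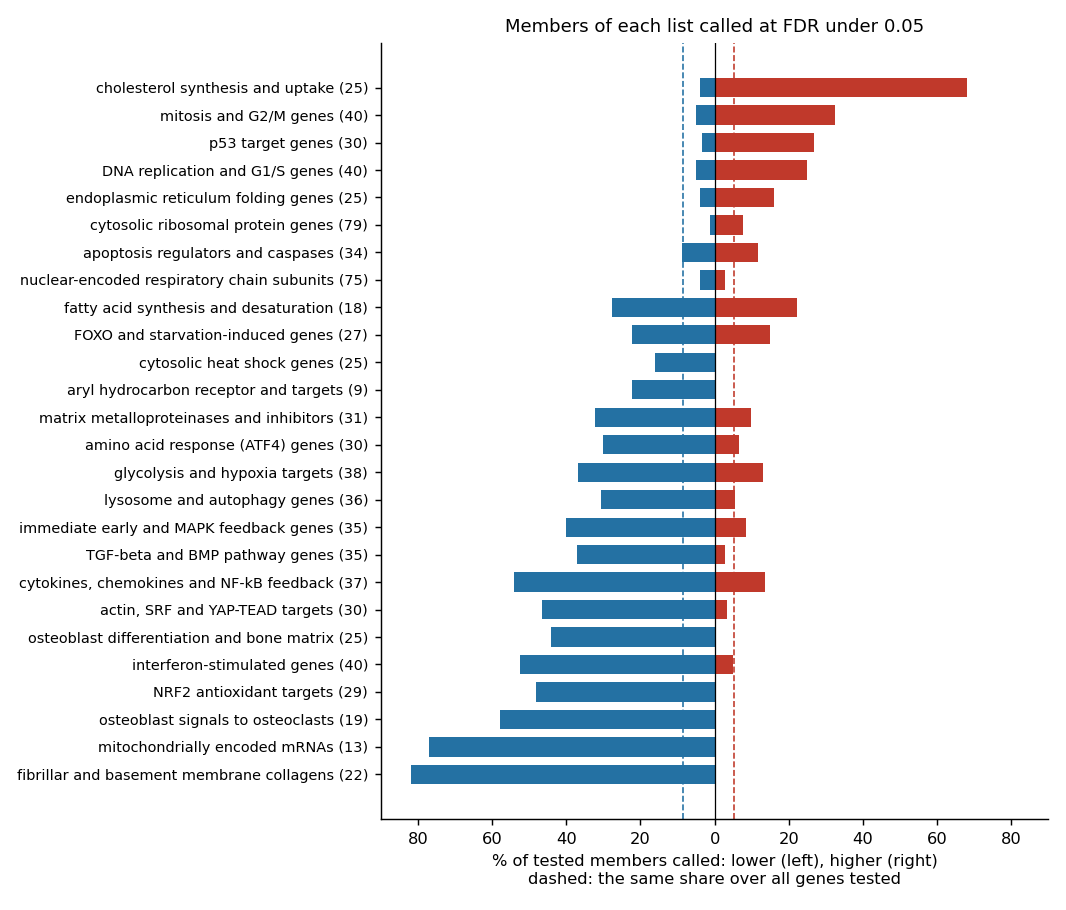
Share of the tested members of each of 26 gene lists called lower (blue, to the left) or higher (red, to the right) for the common change, in percent, with the number tested in brackets; dashed lines mark the shares over all genes, 8.41% lower and 5.21% higher. Collagens, mitochondrially encoded mRNAs and signals to osteoclasts reach furthest to the left, and cholesterol synthesis furthest to the right.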

How the data were processed

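Poly(A) RNA of hFOB 1.19 cells was made into stranded libraries and sequenced on an Illumina instrument. The authors aligned the reads to hg38 with STAR and counted them per Ensembl gene with featureCounts, and the deposited table holds raw counts, not normalized, in 12 columns mapped to samples by their titles. Tool versions, the strand setting and the treatment of multi-mapped reads were not given in the sources used here.

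Counts of the 10 serum-free libraries were tested in R 4.3.3 with edgeR 4.0.16: 16941 of 43836 genes were kept by filterByExpr (99.9647% of reads), TMM scaling was used, and the quasi-likelihood F test of (RES + POG + DEG)/3 against NC was adjusted by Benjamini-Hochberg, with calls at an adjusted p under 0.05. The same fit (6 residual degrees of freedom) tested RES = POG = DEG. The study's exact test compares 2 groups and cannot weigh 3 compounds equally, so it served as an alternative. Symbols and positions came from GENCODE v44 on hg38 (43214 of 43836 IDs matched). The script was tested on simulated counts.

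Named genes were the 10 largest rises and falls without overlap at 1 CPM or more, the 5 largest at 100 CPM or more, the 5 lowest p-values each way at 1 CPM or more, up to 4 called members per list and the genes the study discusses. The members, lists and rules were chosen with earlier results of these data known. Alternatives covered scaling, filters, other tests (DESeq2 1.42.0, limma 3.58.1), the serum libraries and leaving out each library. Single values of some list members are not reported here.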

Additional observations from a re-analysis of the deposited data

Results flagged for a closer look

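In 17 named genes the mean of the 3 compounds passed the test although the 3 log2 differences from NC were not all of 1 sign, and the test of RES, POG and DEG against one another, which uses no NC library in its contrast, found them to differ. In 8 of them (ADM, FKBP4, HSPA1A, MT-CO2, OASL, ROBO4, SLC7A11 and TIMP3) the compound of the other sign did not differ detectably from NC, with 0.0018 for FKBP4 (DEG), 0.0056 for HSPA1A (POG) and 0.00079 for MT-CO2 (RES). The values below are the largest log2 difference between 2 of the compounds. Among interferon-stimulated genes this difference was 1.32 for RSAD2, 1.14 for IFIT2, 0.822 for IFIT1 and 0.571 for OASL. For signaling and growth genes it was 0.939 for EGR1, 0.773 for IL6, 0.572 for ADM and 0.368 for CCND1. TIMP3 differed by 0.838, SLC7A11 by 0.643 and ROBO4 by 0.541, and the keratins KRT8 and KRT18 by 0.391 and 0.388. Of the chaperone genes, HSPA1A differed by 0.401 and FKBP4 by 0.254, and of the mitochondrial mRNAs MT-CYB differed by 0.326 and MT-CO2 by 0.201. For these genes the equal-weight mean does not give a change shared by the 3 compounds.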

How the results depend on the processing

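The number of genes called for the common change was 2307. It was 1392 without NC replicate 1, 1395 without NC replicate 2 and 2009 to 2340 without any other library, so leave-one-out counts ran from 1392 to 2340. It was 1327 with the serum libraries in the fit, 3468 for the mean of POG and DEG alone, 1469 at an adjusted p under 0.01, 153 with a log2 change of at least 0.5 and 37 with at least 1. Beyond the other samples or limits used, the cause of these shifts was not tested. DESeq2 gave 1895, limma-voom 2162, the exact test 2382 and plain library totals 2638. Of the 2307, 1253 were called in the same direction without NC replicate 1 and 1240 without NC replicate 2, and 3 genes were called in the opposite direction with POG and DEG alone. Leaving out single libraries gave 1048 to 1334 genes called without overlap. For the metalloproteinase list, leaving out an NC library gave 7 to 12 members called against 13. With RES and DEG only, KRT18 turned to 0.011 and KRT8 to 0.016. No paired analysis was possible because the labels give no replicate numbers. The part of depth in the calls of genes under 1 CPM was not tested.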
